A study of Bos taurus with 30 samples.

Results

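The platelet-derived growth factor (PDGF) family was described in day 15 bovine embryos through 6 genes, the ligands PDGFA, PDGFB, PDGFC and PDGFD and the receptors PDGFRA and PDGFRB, out of 35092 genes in the count table. The rows were found by their Entrez gene IDs, which are 505908 for PDGFA, 540106 for PDGFB, 613787 for PDGFC, 525931 for PDGFD, 282301 for PDGFRA and 527165 for PDGFRB. The family was chosen by the measured level of PDGFB, which was higher in the extra-embryonic membranes (EEM) of embryos produced in vitro, so that difference is described here without a test. The other 5 genes were taken by name. Embryos produced in vitro (IVP) came from slaughterhouse oocytes matured, fertilized and cultured without serum, and were placed in recipient cows on day 7. In vivo embryos (IVV) came from superovulated and inseminated donors. All were Holstein, from the semen of the same bull, and were flushed from the uterus on day 15, when the embryonic disc (ED) was cut out together with pieces of the EEM. Per the study's methods the IVP embryos were recovered from 2 recipients and the IVV embryos from 2 donors, so procedure and cow cannot be told apart.

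PDGF ligands are secreted dimers that bring together a pair of receptor tyrosine kinases at the cell surface. The PDGFRA receptor binds the A, B and C chains, whereas the PDGFRB receptor binds mainly the B and D chains. PDGFA and PDGFB are cut to their active form inside the cell, and PDGFC and PDGFD outside it. In early mammalian embryos PDGFRA is known as a marker of the hypoblast and of mesoderm, while PDGFB and PDGFRB are best known for the recruitment of mural cells to blood vessels.

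Poly(A) RNA was sequenced in 30 libraries from 17 embryos: 7 IVP and 9 IVV libraries from the ED, and 6 IVP and 8 IVV libraries from the EEM. Both tissues were available in 13 embryos, 5 IVP and 8 IVV. Library totals ran from 48713218 to 63037371 counts. The library preparation was not stranded, so reads of a gene and of an antisense partner cannot be told apart. Levels are given as CPM, the counts of a gene relative to the library total scaled with TMM factors, and they are compared between samples but not between genes, since transcript lengths were not used here. NANOG, a marker of the epiblast, averaged 7.13 CPM in IVP and 18.1 CPM in IVV discs, against 0.0157 and 0.0560 CPM in the EEM. CDX2, a marker of the trophoblast, averaged 70.2 and 55.1 CPM in the discs and 86.9 and 66.7 CPM in the EEM, so the disc libraries also held trophoblast RNA. XIST, the RNA made from the inactive X chromosome, stayed under 1 CPM in all 7 IVP discs and all 6 IVP membranes. Among the IVV libraries it was under 1 CPM in 2 of 9 discs and 2 of 8 membranes, those of embryos VE3 and VE5, and at least 44.9 CPM in the others. The level of XIST therefore moved with procedure, and settings with XIST are given below for part of the results.

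PDGFB, the B chain, was higher in IVP than in IVV embryos in both tissues. In the EEM, PDGFB ran from 10.9 CPM (embryo IVPF9) to 32.6 CPM (IVP14) in the 6 IVP libraries, with a median of 18.9 CPM. In the 8 IVV libraries it ran from 2.44 CPM (VE19) to 5.73 CPM (VE26), with a median of 3.97 CPM. All 6 IVP membranes were above all 8 IVV membranes, and the groups did not overlap, in either direction, for 0.904% of the 14718 genes tested in the EEM. The means were 20.4 ± 8.94 CPM (SD, n = 6) and 4.19 ± 1.15 CPM (SD, n = 8), and the fitted difference was 2.25 on the log2 scale (SE 0.25), or 4.77-fold. Because these values chose the family, neither this difference nor the share of genes without overlap is read as support. The ED did not serve to choose the family. However, 13 embryos gave both tissues, so the disc values and their test are not independent of that choice. IVP14 held the most PDGFB in both tissues. In the ED, PDGFB ran from 7.38 CPM (IVPF10) to 26.9 CPM (IVP14) in IVP embryos, with a median of 16.7 CPM. In IVV discs it ran from 4.82 CPM (VE28) to 11.4 CPM (VE24), with a median of 6.60 CPM. Of the 7 IVP discs, 6 were above every IVV disc, and the disc of IVPF10 lay within the IVV range. PDGFB rose by 1.14 on the log2 scale in IVP discs (SE 0.24, 95% interval 0.64 to 1.63), or 2.20-fold, with an adjusted p of 0.00518 (edgeR quasi-likelihood test, Benjamini-Hochberg adjustment).

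**Figure D1:**
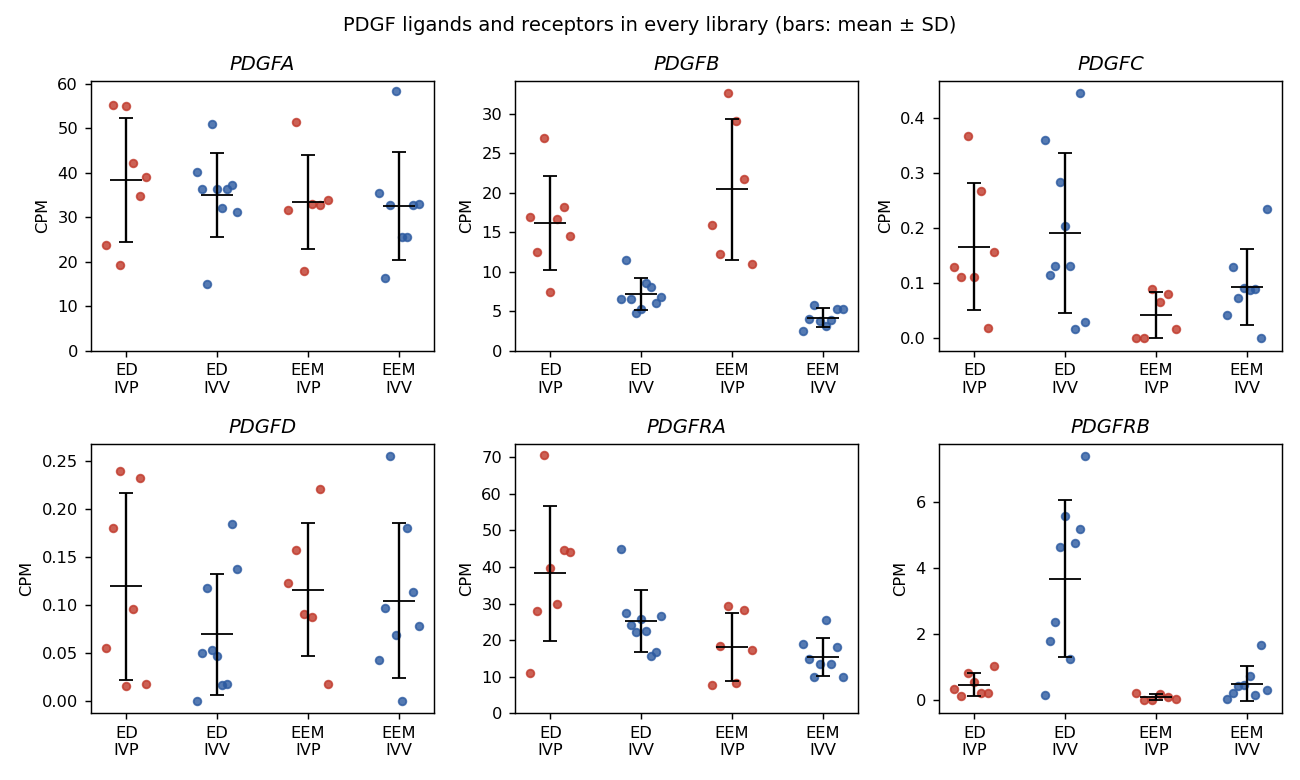
Each point is a library, with the level in CPM on the vertical axis and the tissue and procedure on the horizontal axis; long lines mark group means and bars the SD. The IVP membranes hold PDGFB at 10.9 CPM or more and the IVV membranes at 5.73 CPM or less, whereas PDGFRB is highest in the IVV discs, where it reaches 7.39 CPM.

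The size of the PDGFB difference in the ED changed little with XIST, but its call was lost. With XIST as a covariate PDGFB differed by 1.17 on the log2 scale in the ED (edgeR adjusted p = 0.0850), and among libraries with XIST under 1 CPM, 7 IVP against 2 IVV discs, by 1.05 (edgeR adjusted p = 0.551). In the EEM the same settings gave PDGFB differences of 2.41 and 2.11. The low XIST embryos VE3 and VE5 had PDGFB at 8.61 and 6.09 CPM in the disc and at 3.92 and 5.27 CPM in the membranes, all within the range of the other IVV embryos in each tissue.

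The levels of PDGFB in both tissues of the same embryo are given as a description, because the EEM of IVP and IVV embryos entered the choice of the family. In IVV embryos the ED held more PDGFB than the EEM of the same embryo in 8 of 8, by between 0.20 and 1.50 on the log2 scale of single embryos. The fitted difference was 0.78 (SE 0.17, 95% interval 0.43 to 1.13). In IVP embryos the ED was the higher tissue in 2 of 5, and the fitted difference was -0.28 (SE 0.20, 95% interval -0.71 to 0.15). The value for IVP embryos lay 1.06 below that for IVV embryos on the log2 scale (an interaction of -1.06), from which nothing is read.

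PDGFA, the A chain, was expressed in every library and did not differ beyond the spread between embryos. It ran from 19.3 to 55.2 CPM in IVP discs, with a median of 39.0 CPM, and from 14.9 to 50.9 CPM in IVV discs, with a median of 36.3 CPM. In the EEM the ranges were 17.8 to 51.3 CPM in IVP embryos (median 32.8 CPM) and 16.4 to 58.4 CPM in IVV embryos (median 32.7 CPM). The groups overlapped almost completely in both tissues. The differences of PDGFA between IVP and IVV were 0.15 in the ED (95% interval -0.34 to 0.65; edgeR adjusted p = 0.832) and 0.08 in the EEM (95% interval -0.41 to 0.57; edgeR adjusted p = 0.984) on the log2 scale. Between ED and EEM, PDGFA differed by 0.16 in IVV embryos (95% interval -0.21 to 0.53) and by 0.02 in IVP embryos (95% interval -0.44 to 0.47), with edgeR adjusted p of 0.544 and 0.984.

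PDGFC and PDGFD, the ligands activated outside the cell, were close to the limit of detection. PDGFC held 1 to 23 counts in IVP discs and 1 to 29 counts in IVV discs, with medians of 7 and 9 counts. In the EEM it held 0 to 5 counts in IVP and 0 to 12 counts in IVV embryos, with at most 3 counts in 4 of 6 and in 2 of 8 libraries. PDGFD held 1 to 15 counts in IVP discs, 0 to 12 counts in IVV discs, 1 to 11 counts in IVP membranes and 0 to 14 counts in IVV membranes. Neither gene passed the filter on low counts for IVP against IVV, so no difference between procedures was tested for them. Between tissues both were tested. PDGFC differed by 1.15 in IVV embryos (95% interval -0.06 to 2.37; edgeR adjusted p = 0.166) and by 1.87 in IVP embryos (95% interval 0.17 to 3.57; edgeR adjusted p = 0.234), with the disc higher in 7 of 8 and in 4 of 5 embryos. PDGFD differed by -0.84 in IVV embryos (edgeR adjusted p = 0.377) and by 0.15 in IVP embryos (edgeR adjusted p = 0.949).

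PDGFRA, the receptor for most of the chains, was found in every library, with the highest values in IVP discs. It ran from 10.97 CPM (IVP10) to 70.5 CPM (IVP14) in IVP discs, with a median of 39.6 CPM, and from 15.8 CPM (VE4) to 44.9 CPM (VE19) in IVV discs, with a median of 24.0 CPM. The IVP discs reached both above and below the IVV discs. The difference of 0.59 on the log2 scale did not pass the test (SE 0.30, 95% interval -0.02 to 1.20; edgeR adjusted p = 0.295). With XIST as a covariate the difference was 0.81 (edgeR adjusted p = 0.505), and among discs with XIST under 1 CPM 0.995 (edgeR adjusted p = 0.700). In the EEM PDGFRA ran from 7.69 to 29.3 CPM in IVP embryos (median 17.9 CPM) and from 9.92 to 25.4 CPM in IVV embryos (median 14.1 CPM), and the difference of 0.27 did not pass either (95% interval -0.35 to 0.89; edgeR adjusted p = 0.875).

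PDGFRB, the receptor for the B and D chains, fell in IVP discs. It ran from 0.112 CPM (IVP11) to 1.03 CPM (IVPF15) in the 7 IVP discs, with a median of 0.334 CPM and 5 to 59 counts. In the 9 IVV discs it ran from 0.160 CPM (VE19) to 7.39 CPM (VE6), with a median of 4.63 CPM and 8 to 484 counts. Of the 9 IVV discs, 8 were above every IVP disc, and the disc of VE19 lay among the IVP values. PDGFRB was 10.9-fold lower in IVP discs, a log2 difference of -3.45 (SE 0.51, 95% interval -4.51 to -2.39; edgeR adjusted p = 0.00017). Without the disc of IVP11 the difference was -2.83, and the edgeR adjusted p was at most 0.000859 without any 1 library. The call was lost among the discs with XIST under 1 CPM, where the difference was -2.24 (edgeR adjusted p = 0.125) and where PDGFRB stood at 1.24 and 5.19 CPM in VE3 and VE5. In the ED, 4 of the 6 genes were tested, of which PDGFB rose and PDGFRB fell. Of the 15733 genes tested there, 6.34% were called, 1.4% as higher and 4.95% as lower in IVP embryos.

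In the EEM, PDGFRB was low in both groups, with 0 to 11 counts in IVP and 1 to 89 counts in IVV embryos. It ran from 0 to 0.224 CPM in the IVP membranes, with at most 3 counts in 3 of 6, and from 0.0212 CPM (VE19) to 1.68 CPM (VE4) in the IVV membranes. The difference of -2.48 on the log2 scale missed the threshold (SE 0.73, 95% interval -3.99 to -0.96; edgeR adjusted p = 0.0585). It passed when the membranes of VE19, VE3, VE5, IVPF13 or IVP10 were left out, with edgeR adjusted p of 0.000121, 0.0288, 0.0476, 0.0381 and 0.0495 in this order. The PDGFRB difference in the EEM was smaller with XIST as a covariate (-0.79; edgeR adjusted p = 0.985), among membranes with XIST under 1 CPM (-1.26; edgeR adjusted p = 0.852) and with the title letter as a term (-1.95; edgeR adjusted p = 0.306), and it was -1.88 without VE4 (edgeR adjusted p = 0.191). Besides PDGFB, which chose the family and is not counted, 3 of the 6 genes were tested in the EEM. None of these, PDGFA, PDGFRA and PDGFRB, was called, beside 3.81% of the 14718 genes tested.

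In most embryos both receptors were higher in the disc than in the membranes of the same embryo. PDGFRB was higher in the ED in 8 of 8 IVV embryos, by between 1.49 and 3.99 on the log2 scale, and the fitted difference was 2.91 (SE 0.44, 95% interval 2.00 to 3.82; edgeR adjusted p = 4.59e-05). It was also higher in 5 of 5 IVP embryos, where the fitted difference of 1.73 did not pass (SE 0.66, 95% interval 0.35 to 3.11; edgeR adjusted p = 0.161; DESeq2 adjusted p = 0.0420) and became 0.91 without IVP14 (edgeR adjusted p = 0.491). PDGFRA was higher in the ED in 7 of 8 IVV embryos, by 0.69 in the fit (SE 0.18, 95% interval 0.32 to 1.07; edgeR adjusted p = 0.00812). In IVP embryos it was higher in 5 of 5, by 0.94 (SE 0.23, 95% interval 0.46 to 1.42; edgeR adjusted p = 0.0176). The PDGFRA call in IVP embryos was lost without IVP14 (edgeR adjusted p = 0.0987) or without IVPF13 (edgeR adjusted p = 0.107), and both PDGFRA calls were lost when the tissues of the 13 embryos were not paired (edgeR adjusted p = 0.173 in IVV and 0.274 in IVP). Over all 30 libraries without pairing the PDGFRA call was lost in IVV embryos (edgeR adjusted p = 0.117) and kept in IVP embryos (1.07; edgeR adjusted p = 0.0495). Of the 5 genes other than PDGFB, 2 were called higher in the ED of IVV embryos, PDGFRA and PDGFRB, against 15.6% of the 16784 genes tested. In IVP embryos 1 of the 5, PDGFRA, was called higher, against 4.18% of the same genes.

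**Figure D2:**
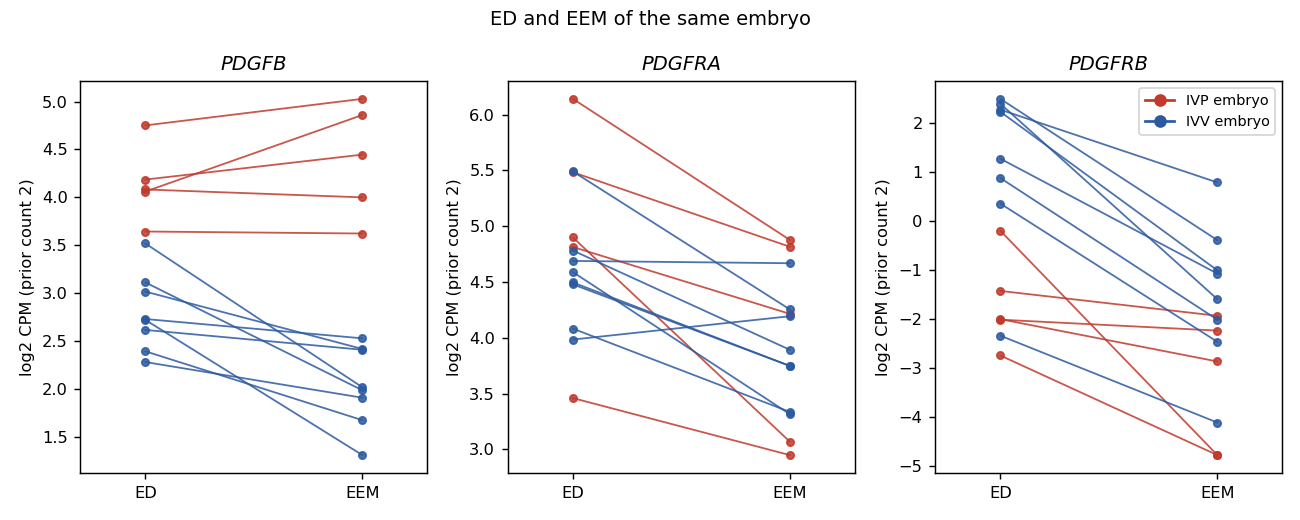
Lines join the ED and the EEM of the same embryo for 5 IVP and 8 IVV embryos, with log2 CPM (prior count 2) on the vertical axis. PDGFB falls from disc to membranes in 8 of 8 IVV embryos but in 2 of 5 IVP embryos, and PDGFRB falls in all 13.

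None of the 5 genes tested for a tissue effect that differed by procedure passed in edgeR or DESeq2, and 0 had an unadjusted p under 0.05 in edgeR, while 1.02% of the 16784 genes passed. The interaction was -0.14 for PDGFA (edgeR adjusted p = 0.956), 0.71 for PDGFC (edgeR adjusted p = 0.920), 0.98 for PDGFD (edgeR adjusted p = 0.856), 0.25 for PDGFRA (edgeR adjusted p = 0.897) and -1.18 for PDGFRB (95% interval -2.90 to 0.55; edgeR adjusted p = 0.729). It became -1.995 for PDGFRB without IVP14 and 1.60 for PDGFC without IVPF14, and neither passed (edgeR adjusted p = 0.187 and 0.698). The intervals of PDGFC, PDGFD and PDGFRB are wide enough to hold differences of over 1 on the log2 scale in either or one direction. The 4 comparisons of the family share libraries, and they are therefore set side by side and not counted as separate support.

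**Figure D3:**
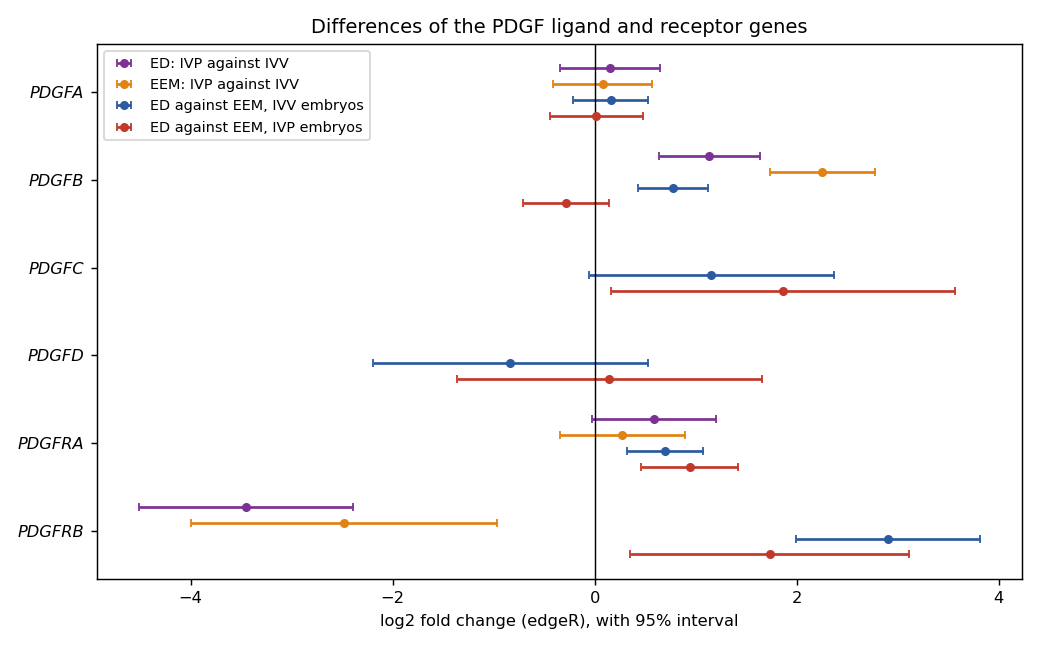
Points are fitted log2 fold changes and bars their 95% intervals, for IVP against IVV in each tissue and for ED against EEM in each procedure. PDGFB lies to the right of 0 for IVP against IVV in both tissues (1.14 and 2.25), PDGFRB to the left (-3.45 and -2.48), and PDGFA close to 0 in every comparison. The EEM value of PDGFB chose the family, so its bar is a description and not a test.

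Of 14 genes that cut, bind or present PDGF ligands, all tested in the ED, 5 fell, 0 rose and 9 did not pass in IVP embryos, beside 4.95% of all genes called lower there, with a median of -0.25 on the log2 scale against -0.01 over all genes tested. The count of 5 became 3 with 2 surrogate variables, with the title letter as a term, and with XIST as a covariate, 2 among libraries with XIST under 1 CPM, and 3 without any 1 of the discs of IVP10, IVPF10, IVPF13, IVPF14, IVPF15, VE28, VE29, VE5 and VE6. PLAT, the tissue plasminogen activator that frees PDGFC from its blocking domain, had a mean of 0.323 CPM (SD 0.152) over the 7 IVP discs and of 4.50 CPM (SD 2.59) over the 9 IVV discs, a difference of -3.84 (SE 0.48; edgeR adjusted p = 2.72e-05). PDGFRL, which resembles the outer part of the receptors, fell by 2.69 (SE 0.58; edgeR adjusted p = 0.00598). The PDGFRL call in the ED was lost among libraries with XIST under 1 CPM (edgeR adjusted p = 0.409). THBS1, a matrix protein that binds PDGF, fell by 1.89 (SE 0.45; edgeR adjusted p = 0.0126). The fifth was LRP1, a large endocytic receptor that associates with PDGFRB. The proteases that cut PDGFA and PDGFB inside the cell did not pass: FURIN stood at 0.60 (SE 0.28), PCSK5 at -0.29 (SE 0.42), PCSK6 at -0.69 (SE 0.36) and PCSK7 at 0.30 (SE 0.20).

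NRP1, a co-receptor that binds PDGF as well as VEGF, moved in opposite directions in the tissues. Its mean was 1.40 CPM (SD 0.525) in the 7 IVP discs and 3.32 CPM (SD 1.56) in the 9 IVV discs, a fall of 1.27 on the log2 scale (SE 0.35; edgeR adjusted p = 0.0307). In the EEM, the mean of NRP1 was 1.07 CPM (SD 0.510) in the 6 IVP libraries and 0.200 CPM (SD 0.129) in the 8 IVV libraries, a rise of 2.42 (SE 0.44; edgeR adjusted p = 0.00124). The interaction of tissue and procedure was -3.62 (SE 0.47; edgeR adjusted p = 0.000475), and its adjusted p stayed at or under 0.00297 when each embryo was left out in turn. The NRP1 call in the ED was lost with 2 surrogate variables, with the title letter or XIST as a term, among libraries with XIST under 1 CPM, and without any 1 of the 9 discs just named (edgeR adjusted p from 0.0528 to 0.276). In the EEM it was lost with XIST as a covariate (edgeR adjusted p = 0.575) and among libraries with XIST under 1 CPM (edgeR adjusted p = 0.287). PDGFRL was the other list gene called in the EEM, where 12 were tested, beside 3.81% of all genes called there in either direction. PDGFRL fell by 2.03 (SE 0.52; edgeR adjusted p = 0.0236). The fall did not pass with XIST as a covariate (edgeR adjusted p = 0.862) or with the title letter as a term (edgeR adjusted p = 0.0543), nor without IVP11 (edgeR adjusted p = 0.0561) or IVPF9 (edgeR adjusted p = 0.0558). Without VE19, VE24, VE26, VE28, VE29 or VE4 PDGFRL was under the filter in the EEM.

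**Figure D4:**
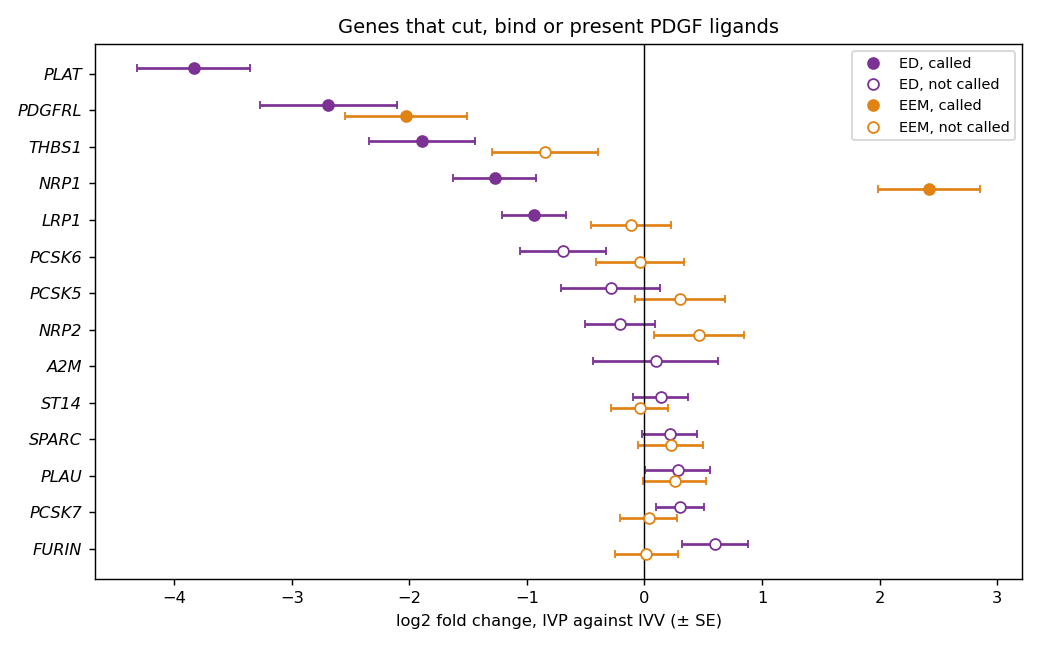
Points are log2 fold changes of IVP against IVV with SE bars for genes that cut, bind or present PDGF ligands, in the ED (14 genes) and in the EEM (12 genes); filled points passed the edgeR test. NRP1 lies at -1.27 in the ED and at 2.42 in the EEM, and PLAT at -3.84 in the ED.

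Between the tissues of IVV embryos, 6 of these 14 genes were higher in the ED and 0 lower, beside 15.6% of all genes called higher, with a median of 0.53 against -0.10 over all genes tested. A2M, a plasma protease inhibitor that binds PDGF, averaged 18.2 CPM in the ED and 0.0187 CPM in the EEM of IVV embryos. NRP1 was higher in the ED by 3.96 (SE 0.32), NRP2 by 3.51 (SE 0.34) and LRP1 by 1.92 (SE 0.18), with edgeR adjusted p of 2.83e-08, 3.13e-07 and 1.40e-07. In IVP embryos 4 of the 14 were higher in the ED, A2M, NRP2, LRP1 and PCSK5, beside 4.18% of all genes, and THBS1 was lower. THBS1 and LRP1 did not pass without the pairing by embryo (edgeR adjusted p = 0.218 and 0.527). The calls of LRP1, PCSK5 and THBS1 in IVP embryos were each lost without IVP11 and without IVPF13 (edgeR adjusted p from 0.0726 to 0.137), those of LRP1 and PCSK5 also without IVP14, and that of THBS1 also without IVPF14, VE28 or VE29.

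Genes that carry the signal from the receptors were mostly not called. Of 44 adaptors, kinases and phosphatases tested in the ED, 0 rose and 2 fell in IVP embryos (4.55% against 6.34% over all genes). FYN, a SRC family kinase, fell by 1.73 (SE 0.42; edgeR adjusted p = 0.0133), and STAT5A, a transcription factor, fell by 1.21 (SE 0.37; edgeR adjusted p = 0.0494). FYN was not called without VE5 (edgeR adjusted p = 0.0579), and fell by 2.46 with XIST as a covariate. STAT5A was not called in 7 of 9 other settings, nor without any 1 of IVP10, IVPF10, IVPF13, IVPF14, IVPF15, VE26, VE28, VE29, VE3, VE5 or VE6 (edgeR adjusted p up to 0.112). In the EEM 0 of 43 were called by edgeR or DESeq2, and 1 had an unadjusted p under 0.05 in edgeR. Of 12 genes known as feedback regulators or ETS factors downstream of ERK, edgeR called 0 in the ED and 0 of 11 in the EEM, with medians of -0.34 and 0.09. At an unadjusted p under 0.05 the edgeR counts were 5 in the ED, all lower, and 1 in the EEM, beside 2902 of 15733 and 2016 of 14718 genes tested, and DESeq2 called 2 of them lower in the ED and 0 in the EEM. With edgeR the number of these genes lower in the ED became 1 with no filter on low counts, with no surrogate variable, with XIST as a covariate, and without IVP14, VE3 or VE4, and 2 without VE24, and in the EEM 1 gene was called higher without VE28. Between the tissues of IVV embryos 7 of the 12 were higher in the ED, among them ETV5, SPRY2 and ETV4 (2.24, 1.24 and 1.44 on the log2 scale), beside 15.6% of all genes tested. Another was ETV1, with means of 2.33 CPM in IVV discs and 0.00202 CPM in IVV membranes. In IVP embryos 2 of the 12 were higher in the ED, ETV1 and ETV5, beside 4.18% of all genes, and the count became 3 with no filter on low counts, 4 with DESeq2 and 3 without IVP10.

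Immediate early genes, which cells switch on within minutes of a growth factor or other stimulus, fell in 11 of 18 cases in the EEM and in 4 of 18 in the ED of IVP embryos, beside 3.81% of all genes called in the EEM in either direction and 4.95% called lower in the ED, a pattern already known when the list was written. None of the 18 rose in the EEM, where their median was -1.08 against 0.00 over all genes. FOS averaged 89.5 CPM in IVP and 684 CPM in IVV membranes, a difference of -2.90 (SE 0.34; edgeR adjusted p = 9.39e-06). EGR1 fell by 2.27, FOSB by 2.09 and ATF3 by 1.79 in the EEM. The 4 genes that fell in the ED were FOS by 2.37, KLF2 by 2.40, ATF3 by 1.33 and EGR1 by 1.29. Of these, FOS was called in the ED in all 9 other settings, whereas ATF3, KLF2 and EGR1 were not called with XIST as a covariate (edgeR adjusted p = 0.168, 0.0805 and 0.203) or among discs with XIST under 1 CPM (edgeR adjusted p = 0.900, 0.607 and 0.631), and EGR1 was not called with 2 surrogate variables or the title letter as a term (edgeR adjusted p = 0.0747 and 0.0561). EGR1 in the ED was also not called without any 1 of IVP14, IVPF10, IVPF13, IVPF14, VE24, VE26, VE28 or VE5 (edgeR adjusted p up to 0.0896). Among libraries with XIST under 1 CPM 1 of the 18 fell in each tissue, and the ED count of 4 became 1 with XIST as a covariate, 6 with no filter on low counts or no surrogate variable, 6 without IVP11, VE4 or VE6 and 7 without IVPF15. Whether these differences are linked to that of PDGFB was not tested.

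Among related receptors and ligands, KDR, the main VEGF receptor of blood vessel precursors, had the smallest p in the ED. Its mean was 0.412 CPM (SD 0.225) in the 7 IVP discs and 13.5 CPM (SD 9.75) in the 9 IVV discs, a difference of -5.10 (SE 0.63; edgeR adjusted p = 2.38e-05), and 0.118 and 0.110 CPM in the IVP and IVV membranes. The interaction for KDR was -5.00 (SE 0.86; edgeR adjusted p = 0.00541), which missed the threshold without IVP11 (edgeR adjusted p = 0.0569) and was -5.72 without IVP14. Among discs with XIST under 1 CPM, KDR differed by -4.05 (edgeR adjusted p = 0.00515). PGF, a ligand of the VEGF family, fell by 1.86 in the ED (SE 0.50; edgeR adjusted p = 0.0266), and was not called in 4 of 8 other settings or without IVP10, IVP11, VE28 or VE4 (edgeR adjusted p from 0.0511 up). In the EEM, FLT3LG, a ligand of a related receptor, was the only 1 of 8 genes called, beside 3.81% of all genes tested there. It was higher by 1.53 (SE 0.39; edgeR adjusted p = 0.0238), and it was not called without the surrogate variable (edgeR adjusted p = 0.434), in either setting with XIST, or without IVP10, IVP14, IVPF13, VE24 or VE5 (edgeR adjusted p from 0.0514 to 0.0728). Of the 11 tested in the ED, 2 fell and 0 rose, beside 4.95% and 1.4% over all genes.

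Markers of cell types that carry PDGF receptors were counted beside PDGFRB. Of 23 genes of the primitive streak and early mesoderm tested in the ED, 15 fell and 0 rose in IVP embryos, beside 4.95% called lower over all genes tested there, and their summed level ran from 69.2 to 127 CPM in IVP and from 107 to 270 CPM in IVV discs. TBXT, which marks the streak, averaged 0.550 CPM in IVP and 8.17 CPM in IVV discs and 0 CPM in the EEM of both groups. Of 10 mural and smooth muscle genes tested in the ED, 6 fell and 0 rose, beside the same 4.95%, with summed levels of 25.4 to 87.7 CPM and 35.2 to 124 CPM. The count of 15 became 7 among discs with XIST under 1 CPM, and was within 1.5 times of 15 without any 1 library. The count of 6 became 0 among those discs, 3 or 4 with XIST, the title letter or a second surrogate variable as a term, and 2 to 4 without any 1 of IVP10, IVP11, IVP14, IVPF10, IVPF13, IVPF15, VE26, VE28, VE29 or VE5. Of 14 endothelial and early blood genes, 4 fell, among them KDR, and 3 rose, beside 4.95% called lower and 1.4% called higher over all genes tested. Of 9 genes of this list tested in the EEM, 2 fell and 2 rose, beside 3.81% of all genes called there in either direction. In the EEM 2 of 13 streak and mesoderm genes fell and 1 rose, beside the same 3.81%. These streak and mesoderm counts ran from 0 to 4 and from 0 to 1 over the other settings. Their count of 2 lower genes became 0 without VE28 or VE5, and 1 without any 1 of the other membranes except IVPF13, IVPF14 and VE3. In the EEM 0 of 7 mural genes were called by edgeR (1 without VE19, and 1 at an unadjusted p under 0.05). The part of these cell types in the difference of PDGFRB was not tested, and in whole tissue fewer cells of a type and less RNA per cell cannot be told apart.

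Markers of other cell types were summed in each library, and their part in the differences of PDGFB and PDGFRA was not tested. Megakaryocyte and platelet genes summed to 2.01 to 6.39 CPM over all groups, and PF4 and SELP held at most 3 counts in every library of 3 and 4 groups. Maternal immune genes summed to 2.00 to 21.8 CPM and maternal uterine epithelial genes to 9.17 to 32.6 CPM, with ranges that overlapped between IVP and IVV in each tissue. SERPINA14 and PAEP, secreted by the uterus, were at or under 3 counts in every library. Of 20 trophoblast genes 0 rose in either tissue and 1 fell in the ED, with summed levels of 37685 to 88677 CPM in IVP and 37953 to 69947 CPM in IVV membranes. In the discs these genes summed to 13760 to 75365 CPM in IVP and 33897 to 52239 CPM in IVV embryos. Of 18 hypoblast genes 1 was higher in IVP discs, and of 16 in the EEM 1 was higher and 1 lower. Of 11 epiblast genes 2 were lower in IVP discs, and of 7 in the EEM 1 was higher. The shares called over all genes tested were 6.34% in the ED and 3.81% in the EEM.

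PDGFRA was set against the mean score of hypoblast genes and of streak and mesoderm genes within each of the 4 groups, giving 8 relations. The strongest was with the hypoblast score in the 7 IVP discs (Pearson's r = 0.706, exact permutation p = 0.0329, adjusted p = 0.263; Spearman's rho = 0.643, exact permutation p = 0.139). Without the 2 discs farthest from the median score r was 0.407. Leaving out 2 libraries in the same way also moved other relations. Those with the streak and mesoderm score went from 0.370 to 0.837 in IVP discs and from -0.568 to 0.0437 in IVP membranes. Those with the hypoblast score went from -0.0491 to -0.703 in IVV discs and from 0.241 to 0.696 in IVP membranes. With all libraries the other 7 values of r ran from -0.568 to 0.370, and no relation passed the adjustment.

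The genes with levels most like PDGFB were sought over the 14 EEM libraries, as a description that also reflects the group difference. RCAN2, a regulator of calcineurin, was the closest (r = 0.951), followed by FBN2, a fibrillin of the matrix (r = 0.947), ZDHHC15 (r = 0.931), PCOLCE2 (r = 0.920) and GPR143 (r = 0.911). RCAN2 averaged 5.96 CPM in IVP and 2.36 CPM in IVV membranes, and within these groups its r with PDGFB was 0.951 (n = 6) and 0.820 (n = 8). In the discs r between RCAN2 and PDGFB was 0.774 in the 7 IVP discs and -0.703 in the 9 IVV discs. FBN2 was lower in IVP than in IVV discs (means of 0.914 and 3.05 CPM), whereas PDGFB was higher. Over all 30 libraries the closest genes to PDGFB were ZNF557, PRSS42, SEMA4B, B3GALT5 and PIWIL2, with r from 0.799 down to 0.767. SEMA4B, a semaphorin, averaged 133 CPM in IVP discs and 133 CPM in IVP membranes, against 56.6 and 40.3 CPM in the IVV tissues.

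PDGFRB was most like APLNR, the apelin receptor of early mesoderm (r = 0.873 over the 30 libraries), then GATA5 (r = 0.867) and NRG1 (r = 0.859). APLNR averaged 14.8 CPM in IVV discs, 0.259 CPM in IVP discs and at most 0.0304 CPM in the EEM groups. Within the 9 IVV discs r between PDGFRB and APLNR was 0.968, and the disc of VE19 was the lowest in both, with 0.160 CPM of PDGFRB and 0.200 CPM of APLNR. PDGFRA was most like TM6SF2 (r = 0.868), SLC7A8 (r = 0.864), an amino acid transporter, and FAT2 (r = 0.820). PDGFA was closest to RHBG, COMMD5 and ZBTB48 (r from 0.789 to 0.765). PDGFC, closest to SH2D4B (r = 0.740), and PDGFD, closest to FBXO36 (r = 0.674), had too few counts for these values to be more than a listing. The points of these relations share tissue, procedure and, for 13 embryos, the embryo itself.

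**Figure D5:**
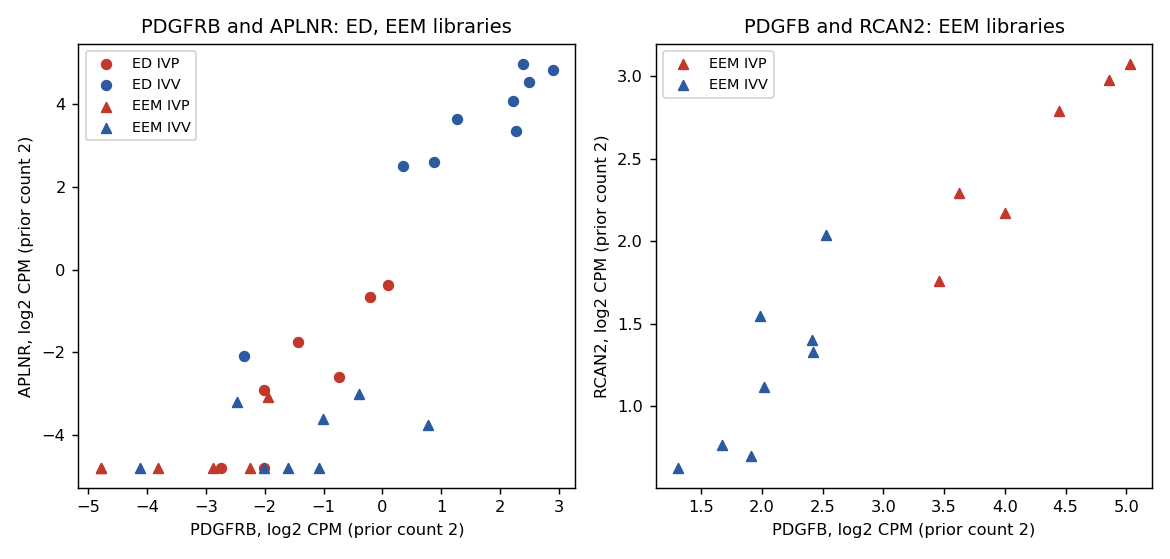
Each point is a library, with log2 CPM (prior count 2) on both axes: PDGFRB against APLNR over the 30 libraries of both tissues, and PDGFB against RCAN2 over the 14 EEM libraries. On the PDGFRB axis 7 of 9 IVV discs lie above every other library, while those of VE19 (0.160 CPM) and VE3 (1.24 CPM) lie below the highest membrane (VE4, 1.68 CPM), and the IVP membranes lie above the IVV membranes on the PDGFB axis.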

How the data were processed

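Poly(A) RNA of 30 libraries from the ED and EEM of day 15 embryos was analysed. The authors filtered paired reads with SOAPnuke, and the deposited values are raw read counts per Entrez gene ID (35092 rows) on ARS-UCD1.3. The submitters' processing notes name FastQC 0.11.9, Trimmomatic, STAR 2.7.0b and featureCounts of Subread 2.0.3. Symbols came from RefSeq ARS-UCD2.0 by gene ID (31630 named), so no positions are given.

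Here, counts were fitted with edgeR 4.0.16 in R 4.3.3: TMM, filterByExpr (minimum count 10), quasi-likelihood test and Benjamini-Hochberg adjustment over all genes tested at 0.05. IVP and IVV were compared within each tissue with 1 surrogate variable from svaseq (sva 3.50.0). The tissues were compared over 26 libraries from 13 embryos, with embryo as a block, since titles name the embryo of both tissues. Deviations of paired tissues from their group means correlated at -0.187 in IVPF13 and 0.263 to 0.635 in the other 12. Levels are CPM, log2 values carry a prior count of 2, and up to 3 counts were read as the floor. Replicates are separate embryos. Floors cover counting error only.

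The genes and lists were chosen with earlier results of these data known. All 6 genes were named, at most 4 called genes per list, direction and comparison by smallest p, and the 5 (PDGFB) or 3 most alike by Pearson's r; NANOG, CDX2, TBXT, XIST, SERPINA14, PAEP, PF4, SELP, the intracellular proteases and the fifth gene of the binding list in the ED were named besides. Alternatives were RLE, no filter, DESeq2 1.42.0, 0 or 2 surrogate variables, halved counts, the letter ending the titles as a term, XIST as a covariate, no block, all 30 libraries, and each library or embryo left out; libraries with XIST under 1 CPM alone were added after seeing the data. The labels give neither sex nor morphology for each embryo. The scripts were tested on simulated data.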

Additional observations from a re-analysis of the deposited data

Results flagged for a closer look

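Of 24 groups of libraries (6 genes in 4 groups), 3 held a library far from the others by Dixon's test, where chance gives about 1 in 20 groups. PDGFA reached 58.4 CPM in the EEM of IVV embryo VE28, against 35.5 CPM in the next IVV membrane. PDGFRA reached 44.9 CPM in the ED of IVV embryo VE19, against 27.5 CPM in the next IVV disc. The disc of VE19 also held the least PDGFRB among the IVV discs. PDGFRB reached 1.68 CPM in the EEM of IVV embryo VE4, against 0.723 CPM in the next IVV membrane.

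The effect of procedure differed between tissues for 2 genes of the pathway lists by the interaction test of edgeR. These lists held 14, 44, 13, 12 and 18 tested genes, and 1.02% of all 16784 genes tested passed. NRP1 had an interaction of -3.62 on the log2 scale (edgeR adjusted p = 0.000475), and KDR one of -5.00 (edgeR adjusted p = 0.00541). The KDR call was lost without IVP11 (edgeR adjusted p = 0.0569).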

How the results depend on the processing

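PDGFB kept its direction throughout. In the EEM, where its level chose the family, the difference is only described. It ran there from 2.11 to 2.41 over the alternatives and from 2.07 to 2.41 with 1 library left out. In the ED the difference of PDGFB ran from 1.05 to 1.20 and from 1.00 to 1.26, with edgeR adjusted p from 0.00122 to 0.0133 without 1 library. Its ED call was lost with XIST as a covariate (1.17) and with libraries under 1 CPM of XIST alone (1.05), as was that of PDGFRB in the latter (-2.24). The PDGFRB call in the ED held with each library left out. In the EEM PDGFRB passed without a filter (-2.49) and ran from -2.96 to -1.88 with 1 library left out, and it was -0.79 with XIST as a covariate, -1.26 with libraries under 1 CPM of XIST alone and -1.95 with the title letter as a term. PDGFRB for ED against EEM in IVP embryos passed with DESeq2 (1.88). With no replicate block PDGFRA for ED against EEM did not pass in IVV (0.69; 0.70 over all 30 libraries) or, in the 13 paired embryos, IVP embryos (0.97; passed over all 30 libraries, 1.07), where leaving out 1 embryo gave 0.72 to 1.07. Without the block no other call of the 6 genes changed.

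Signs changed for values that were never called. PDGFA in the EEM was -0.18 with XIST as a covariate and -0.020 to 0.20 without 1 library; in the ED it was -0.049 to 0.25, for ED against EEM in IVP embryos -0.066 to 0.14, and its interaction over all 30 libraries was 0.091. PDGFRA in the EEM was -0.042 with 2 surrogate variables, and PDGFD for ED against EEM in IVP embryos -0.18 to 0.42. Without 2 embryos, r of PDGFRA with the hypoblast score in IVV membranes moved from -0.213 to 0.186. With the mesoderm score it moved from -0.568 to 0.0437 in IVP membranes and from 0.250 to -0.205 in IVV membranes.

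Genes called in the ED numbered 998, against 1846 with no filter, 1512 with DESeq2, 206 with libraries under 1 CPM of XIST alone and 639 to 1160 without 1 library. In the EEM 561 became 1211 with no filter, 146 with XIST as a covariate and 139 with libraries under 1 CPM of XIST. For ED against EEM in IVV embryos 3711 became 2268 with no replicate block and 2349 over all 30 libraries, and in IVP embryos 810 became 473 to 851 without 1 embryo. The interaction had 172 calls, against 356 with no filter, 435 with DESeq2, 301 over all 30 libraries and 101 to 211 without 1 embryo. The cause of these shifts was not tested. PDGFC and PDGFD were under the filter on low counts for IVP against IVV.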
